A study of Mus musculus with 4 samples.

Results

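The circadian clock genes described here are 10 transcripts of the core feedback loop and its first output in whole brains of adult C57BL/6J mice that had been injected with ethanol or saline as pups. They were taken as the probe sets whose annotation gives exactly 1 of the symbols Clock, Arntl (also called Bmal1), Per1, Per2, Per3, Cry1, Cry2, Nr1d1, Nr1d2 and Dbp. Each symbol had 1 such probe set, so the 10 genes are 10 of the 35556 probe sets on the arrays and 10 of the 21789 that name a single gene. They were measured on 4 Affymetrix Mouse Gene 1.0 ST arrays, 2 per group, in the model the study names trimester 3 injection. An array carries the whole-brain RNA of a pool of 3 males from different litters. The ethanol group had been injected subcutaneously on postnatal days 4 and 7 with 20% ethanol in 0.15 M saline, as 2 doses of 2.5 g/kg given 2 hours apart on each day. The control group had been injected with 0.15 M saline alone. Ethanol and saline pups were drawn from the same litters, but which pools share litters is not given, so the pools were not paired. All animals were male, were kept on a 14-hour light and 10-hour dark cycle and were adult at collection, which the labels place at day 60 and the methods at a later day. The hour of collection is given neither in the labels nor in the methods. Because each pool mixes 3 animals, the arrays show no spread between animals, and a pooled level is an average over whatever hours its animals were collected at.

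Array names (control 1, control 3, ethanol 2, ethanol 4) follow their titles. In the labels, the treatment entry goes against title and source name for control 1 and ethanol 4, and the groups follow the title here, as does the source name. Array medians were 6.61 and 6.51 for control 1 and control 3, and 6.33 and 6.38 for ethanol 2 and ethanol 4 (log2 signal). As deposited, the median probe set was therefore 0.146 lower on the log2 scale on the ethanol arrays (a difference of -0.146), so each difference is given with its value after quantile normalization of the 4 arrays, which left a median difference of -0.0042. Some brain cell markers had high signal. Snap25 of neurons was at 13.28 to 13.34, Aqp4 of astrocytes at 10.71 to 10.82 and Mbp of myelin at 11.58 to 11.80. Others were dim, with a mean of 5.06 for Aif1 of microglia and 5.22 for Kdr of endothelium. The study's limits are a 1.2-fold difference with an unadjusted p under 0.05. Of 39 measured markers of brain, pituitary and pineal cells, 3 were lower and 1 was higher on the ethanol arrays past these limits. Of all probe sets, 17.9% were lower and 2.23% higher past them. The pituitary list had a summed log2 signal of 12.66 to 12.81 on 3 arrays and 7.81 on ethanol 2, so results are also given without that array. Pomc of this list was instead low in both ethanol pools, at 5.48 and 5.50, against 5.95 and 6.09 in the control pools. Its difference was -0.53 as deposited and -0.35 after quantile normalization. Both were past the limits in the lower direction, as were 17.9% and 5.87% of all probe sets.

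In the core loop, the proteins of Clock and Arntl pair and activate transcription from E-box sequences. Their targets include the Period and Cryptochrome genes, whose proteins return to the nucleus and inhibit the pair, and the nuclear receptors Nr1d1 and Nr1d2 (REV-ERB alpha and beta), which repress Arntl through ROR elements. Dbp is another E-box target, and its protein activates genes through D-box sequences. In most tissues the transcripts of Arntl and of the Per, Nr1d and Dbp genes rise and fall at opposite times of day, whereas Clock varies little. Whole-brain RNA averages the master clock of the suprachiasmatic nucleus with many other regions, and in such bulk samples fewer cells of a type and less RNA per cell cannot be told apart.

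Across the 10 clock genes, the differences as deposited ran from -0.32 to 0.06. Their median was -0.16, near the -0.15 of all probe sets. The highest and lowest of the 4 arrays were 0.14 to 0.47 log2 units apart per gene, with a median of 0.24, whereas this range had a median of 0.33 over all probe sets and 0.28 over those naming 1 gene. The limits were passed by Per1 and Cry2 of the repressor limb, both lower on the ethanol arrays, and by none of the other 8 genes. Over all probe sets 17.9% passed the limits in the lower direction and 2.23% in the higher one. The count of 2 in 10 is thus near that background. After quantile normalization none of the 10 genes passed, where 5.87% of all probe sets passed in the lower direction and 5.71% in the higher one. No clock gene passed 0.05 after Benjamini-Hochberg adjustment of limma's p-values over all probe sets, and the adjusted p of the 10 genes ran from 0.177 to 0.962. A single probe set on the arrays passed that adjusted threshold (0.00281% of all). The 2 clock genes with an unadjusted p under 0.05 in limma were again Per1 and Cry2, so this is the same count of 2. Without ethanol 2 the differences of Per1 and Cry2 were -0.29 and -0.25.

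**Figure D1:**
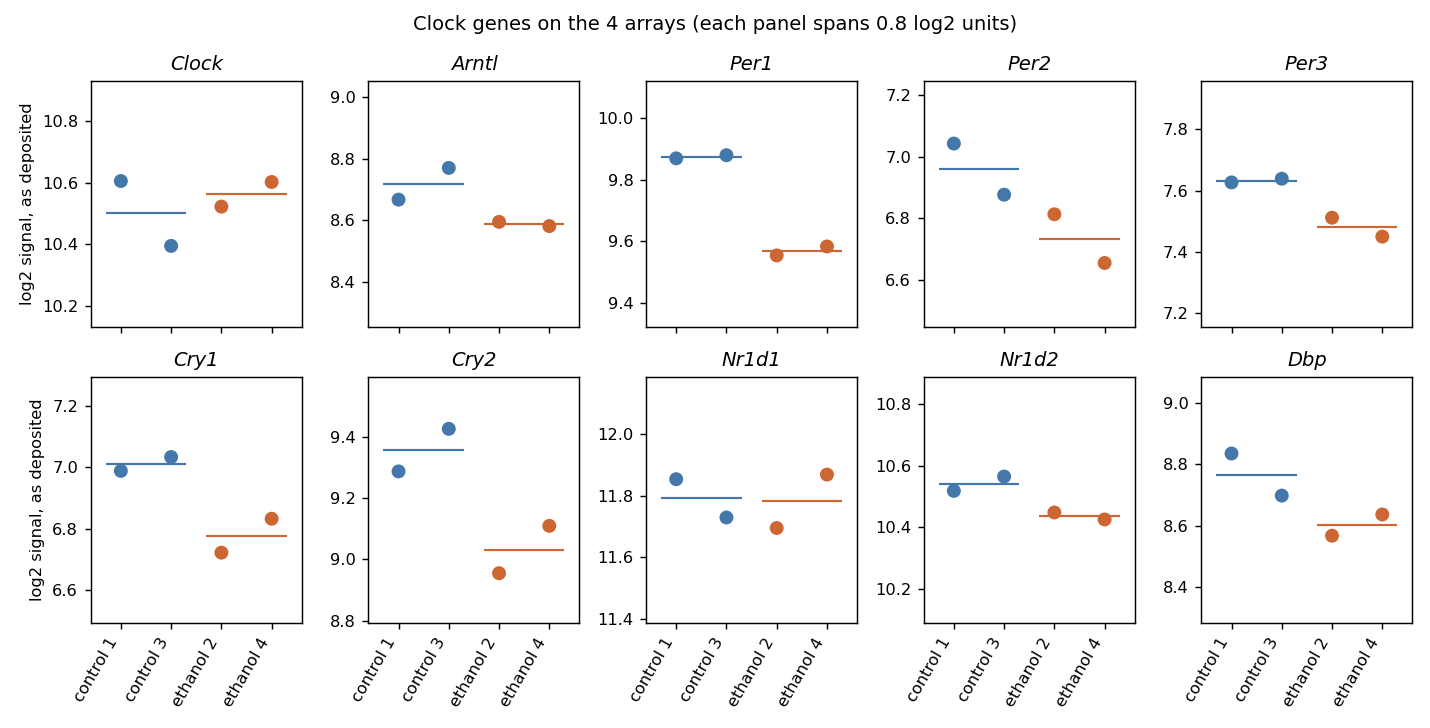
Log2 signal of the 10 clock genes as deposited (vertical axis, 0.8 log2 units in each panel) on the 2 control arrays (blue) and the 2 ethanol arrays (orange), with horizontal lines at the group means. Per1 and Cry2 show both ethanol pools well below both control pools, and for Clock and Nr1d1 the groups overlap.

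For 8 of the 10 genes both ethanol pools lay below both control pools as deposited, and for the other 2, Clock and Nr1d1, the groups overlapped. That order was met by 52.7% of all probe sets, and the opposite order by 7.25%. After quantile normalization only Per1 and Cry2 kept both ethanol pools below both controls, no gene had them above, and 8 genes overlapped. Over all probe sets 24.9% were then in the first order and 24.0% in the second. With each array centred on its median in place of quantile normalization, 4 of the 10 differences were below 0 and 6 were above 0. The median difference of the 10 genes was -0.16 as deposited and -0.02 after quantile normalization, against -0.15 and -0.0042 for all probe sets.

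**Figure D2:**
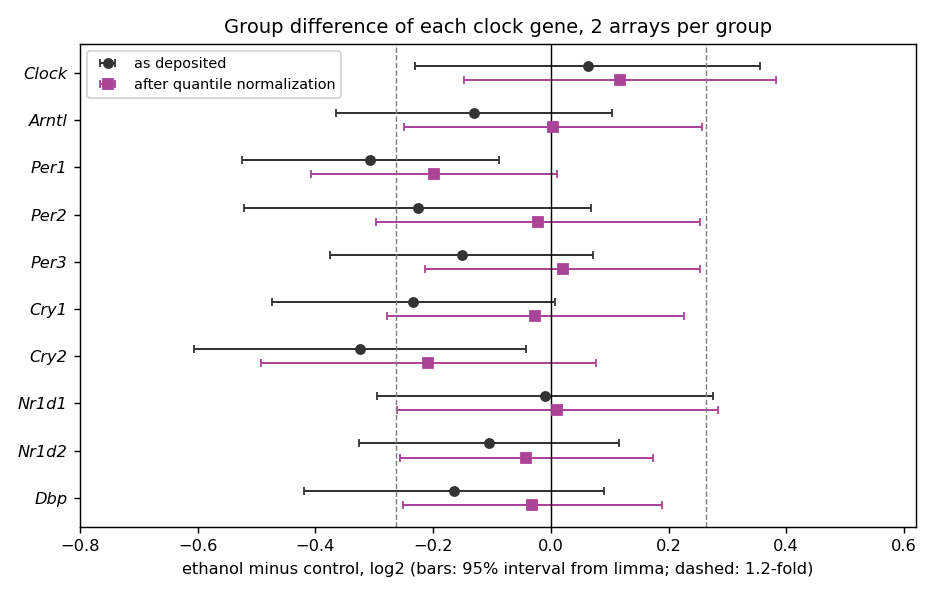
Difference between the group means (ethanol minus control, log2) for each clock gene as deposited (black circles) and after quantile normalization (purple squares), with 95% intervals from limma and dashed lines at 1.2-fold. The intervals of Per1 and Cry2 exclude 0 as deposited, and after normalization all 10 intervals include 0.

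Among the activators, Clock, which encodes the bHLH-PAS partner of ARNTL, had log2 signals of 10.61 and 10.39 on control 1 and control 3 and of 10.52 and 10.60 on ethanol 2 and ethanol 4. The ethanol pools lay between the controls. The difference was 0.06 (standard error 0.11, adjusted p = 0.742) as deposited and 0.12 after quantile normalization. With each array centred on its median it was 0.27 and past the study's limits, the one clock gene to be so under that scaling. Of all probe sets, 9.09% were then past the limits and higher. Without control 3, the array with the lowest Clock signal, the difference of Clock was -0.04. Arntl had signals of 8.67 and 8.77 in the control pools, against 8.59 and 8.58 in the ethanol pools. The ethanol pools were nearly equal and below both controls as deposited, by a difference of -0.13 (standard error 0.09, adjusted p = 0.405). After quantile normalization the Arntl groups overlapped and the difference was 0.00299 (95% interval -0.25 to 0.26), an interval that reaches nearly 1.2-fold in either direction.

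The sequence around the start of Arntl is shown because ROR elements are the sequences through which the Nr1d proteins act on it. In RefSeq (build GRCm38.p6) the window of 250 bases before and 50 after the second of its annotated start sites is chr7:113207261-113207560 on the plus strand, and it holds 2 matches to the ROR element core TAGGTNA, given in capitals.
Arntl: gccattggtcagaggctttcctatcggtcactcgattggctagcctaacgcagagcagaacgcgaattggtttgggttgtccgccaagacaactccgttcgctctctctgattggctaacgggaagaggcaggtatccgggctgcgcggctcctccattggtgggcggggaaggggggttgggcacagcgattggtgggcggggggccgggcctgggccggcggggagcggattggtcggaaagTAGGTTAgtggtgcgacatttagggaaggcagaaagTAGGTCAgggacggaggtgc

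The Period genes encode the repressors whose accumulation closes the loop, and Per1 is also an early-response gene induced by light and by glucocorticoids. Of the 10 genes Per1 had the lowest adjusted p. Its log2 signals were 9.87 and 9.88 in the control pools, against 9.55 and 9.58 in the ethanol pools. The 2 pools of a group were thus within 0.03 of each other, and the groups were 0.31 apart. The difference of -0.31 (standard error 0.08, 95% interval -0.52 to -0.09, unadjusted p = 0.0161, adjusted p = 0.177) corresponds to a signal 19.1% lower on the ethanol arrays. After quantile normalization it was -0.20 (adjusted p = 0.379), with both ethanol pools still below both controls, at 9.62 and 9.63 against 9.80 and 9.85. With any 1 of the 4 arrays left out it ran from -0.32 to -0.29 and was no longer past the limits, with unadjusted p from 0.0555 to 0.0708. Grouped by the treatment entry of the labels it was -0.02, and with arrays centred on their medians it was -0.09.

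Per2 had signals of 7.04 and 6.88 in the control pools, against 6.81 and 6.65 in the ethanol pools. Its control pools were 0.17 apart and its ethanol pools 0.16 apart, against a difference of -0.23 between the groups (standard error 0.11, adjusted p = 0.293). After quantile normalization ethanol 2 became the highest array and ethanol 4 remained the lowest, and the difference was -0.02. Per3 had signals of 7.63 and 7.64 in the control pools, against 7.51 and 7.45 in the ethanol pools. It lay lower in both ethanol pools by a difference of -0.15 (standard error 0.08, adjusted p = 0.332), and the groups overlapped after quantile normalization, at 0.02. The 3 Period genes therefore had differences of one sign as deposited, and only that of Per1 was past the limits.

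The start regions of Per1 and Per3 are shown because E-boxes and D-boxes are the sequences through which the loop and its output act. The Per1 window, at the upstream one of its annotated start sites (chr11:69098699-69098998, plus strand), holds 1 E-box, CACGTG. The Per3 window (chr4:151044616-151044915, minus strand) holds 2 D-boxes, both TTATGTAA. Capitals mark these matches.
Per1: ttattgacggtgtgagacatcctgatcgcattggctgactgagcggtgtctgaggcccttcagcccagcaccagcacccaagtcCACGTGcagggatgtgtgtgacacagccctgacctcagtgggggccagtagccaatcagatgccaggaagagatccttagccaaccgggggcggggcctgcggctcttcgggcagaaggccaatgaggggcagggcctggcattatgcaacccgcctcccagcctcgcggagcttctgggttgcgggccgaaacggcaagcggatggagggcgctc
Per3: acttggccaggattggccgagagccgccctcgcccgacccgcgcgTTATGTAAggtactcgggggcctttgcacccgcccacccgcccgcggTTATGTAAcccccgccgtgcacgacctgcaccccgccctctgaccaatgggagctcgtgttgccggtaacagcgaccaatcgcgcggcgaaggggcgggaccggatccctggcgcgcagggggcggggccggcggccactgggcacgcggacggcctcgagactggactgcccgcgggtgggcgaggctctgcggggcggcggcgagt

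The Cryptochromes are the partners of the Period proteins in the repressor complex. Cry2 had the largest difference in size of the 10 genes as deposited, with signals of 9.29 and 9.43 in the control pools, against 8.96 and 9.11 in the ethanol pools. All 4 values were spread, and the groups did not overlap. Its difference was -0.32 (standard error 0.11, 95% interval -0.61 to -0.04, unadjusted p = 0.0325, adjusted p = 0.20), a signal 20.1% lower on the ethanol arrays. After quantile normalization it was -0.21 (adjusted p = 0.457), with both ethanol pools still the lower ones. Without ethanol 2 the difference was -0.25, without control 3 it was also -0.25, and neither was past the limits. It was also short of them with control 1 and ethanol 4 as a replicate block (unadjusted p = 0.0644). Grouped by the treatment entry Cry2 was at -0.15, and with arrays centred on their medians at -0.11. Cry1 had signals of 6.99 and 7.03 in the control pools, against 6.72 and 6.83 in the ethanol pools, with a difference of -0.23 (standard error 0.09, adjusted p = 0.232) that was short of the limits. After quantile normalization Cry1 had a difference of -0.03, and its lowest array was control 1.

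The start regions of both Cryptochromes are shown for comparison, since Cry2 was past the limits and Cry1 was not. The Cry2 window (chr2:92434020-92434319, minus strand) holds 1 match to the variant E-box CACGTT, on the opposite strand, where it reads AACGTG. The Cry1 window (chr10:85185005-85185304, minus strand) holds 1 E-box, CACGTG, and 1 such variant.
Cry2: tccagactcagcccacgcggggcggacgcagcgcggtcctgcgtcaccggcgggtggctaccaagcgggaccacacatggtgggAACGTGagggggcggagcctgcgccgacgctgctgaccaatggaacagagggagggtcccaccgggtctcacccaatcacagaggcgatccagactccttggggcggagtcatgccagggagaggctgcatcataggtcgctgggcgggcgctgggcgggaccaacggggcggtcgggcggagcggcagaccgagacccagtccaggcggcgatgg
Cry1: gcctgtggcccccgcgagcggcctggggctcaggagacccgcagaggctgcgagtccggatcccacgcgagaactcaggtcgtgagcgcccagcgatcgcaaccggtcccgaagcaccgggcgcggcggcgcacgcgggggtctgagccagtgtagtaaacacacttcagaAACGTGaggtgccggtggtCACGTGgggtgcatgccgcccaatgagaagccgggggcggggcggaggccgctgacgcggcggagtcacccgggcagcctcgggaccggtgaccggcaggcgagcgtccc

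The nuclear receptors of the second loop had the smallest ranges of the 10 genes over the 4 arrays as deposited, which for Nr1d1 did not hold after quantile normalization. Nr1d1, whose transcript has one of the strongest daily rhythms in many tissues, had signals of 11.85 and 11.73 in the control pools, against 11.70 and 11.87 in the ethanol pools. The ethanol pools enclosed both controls, and the difference was -0.01 (standard error 0.11, adjusted p = 0.962, 95% interval -0.30 to 0.28). Nr1d2 had signals of 10.52 and 10.57 in the control pools, against 10.45 and 10.43 in the ethanol pools. Its range of 0.14 over the 4 arrays was the smallest of the 10 genes. The difference of -0.11 (standard error 0.08, adjusted p = 0.467) was -0.04 after quantile normalization.

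Dbp, the D-box activator and a direct read-out of CLOCK and ARNTL activity, had signals of 8.83 and 8.70 in the control pools, against 8.57 and 8.64 in the ethanol pools. Its difference was -0.16 (standard error 0.10, adjusted p = 0.351) as deposited. After quantile normalization control 3, at 8.67, lay between ethanol 2 and ethanol 4, at 8.64 and 8.70, and the difference was -0.03 (95% interval -0.25 to 0.19). Nr1d1, Dbp and Per2, with strong daily rhythms in most tissues, were among the 8 of 10 genes whose groups overlapped after normalization. Per1, which is also rhythmic, was not among them.

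The limbs were also set side by side on each array, as the mean deviation of their genes from each gene's own mean over the 4 arrays. These are descriptions of chosen genes, and no test was made of them. As deposited, the Per and Cry limb was at 0.12 and 0.13 on control 1 and control 3, and at -0.13 and -0.12 on ethanol 2 and ethanol 4. The Clock and Arntl limb was at 0.04 and -0.01 in the control pools, against -0.03 and -0.0005 in the ethanol pools. The Per and Cry mean was thus lower on both ethanol arrays, whereas the activator mean joined genes with differences of opposite sign, Clock at 0.06 and Arntl at -0.13. The Nr1d pair had its lowest value, -0.07, on ethanol 2 and equal values of 0.01 on control 3 and ethanol 4, so it did not follow the Per and Cry limb.

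A contrast of limbs within an array is free of any constant shift of that array. The Per and Cry limb minus the activator limb was 0.08 and 0.14 in the control pools, against -0.10 and -0.12 in the ethanol pools, a difference of -0.21 between the groups, and the values are the same when arrays are centred on their medians. After quantile normalization the contrast was 0.03 and 0.12 in the control pools, against -0.06 and -0.09 in the ethanol pools, a difference of -0.15. The groups did not overlap as deposited or after quantile normalization, and median centring cannot change this contrast. How often other sets of genes show such an order was not computed. After quantile normalization the Per and Cry mean rested on Per1 (-0.20) and Cry2 (-0.21). Per2, Per3 and Cry1 were at -0.02, 0.02 and -0.03, so the contrast does not show a shift of the whole limb. Taken as a pair, Per1 minus Clock differed by -0.37 between the groups and Per1 minus Arntl by -0.18. Under median centring the activator limb was the one that differed most, by 0.18, with the Per and Cry limb at -0.04, so which limb differed most depended on the scaling. All these contrasts use the groups of the titles. By the treatment entry, control 1 and ethanol 2 form the ethanol group, with Per and Cry minus activators at 0.08 and -0.10 as deposited. Control 3 and ethanol 4, at 0.14 and -0.12, then form the control group, and the groups overlap.

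**Figure D3:**
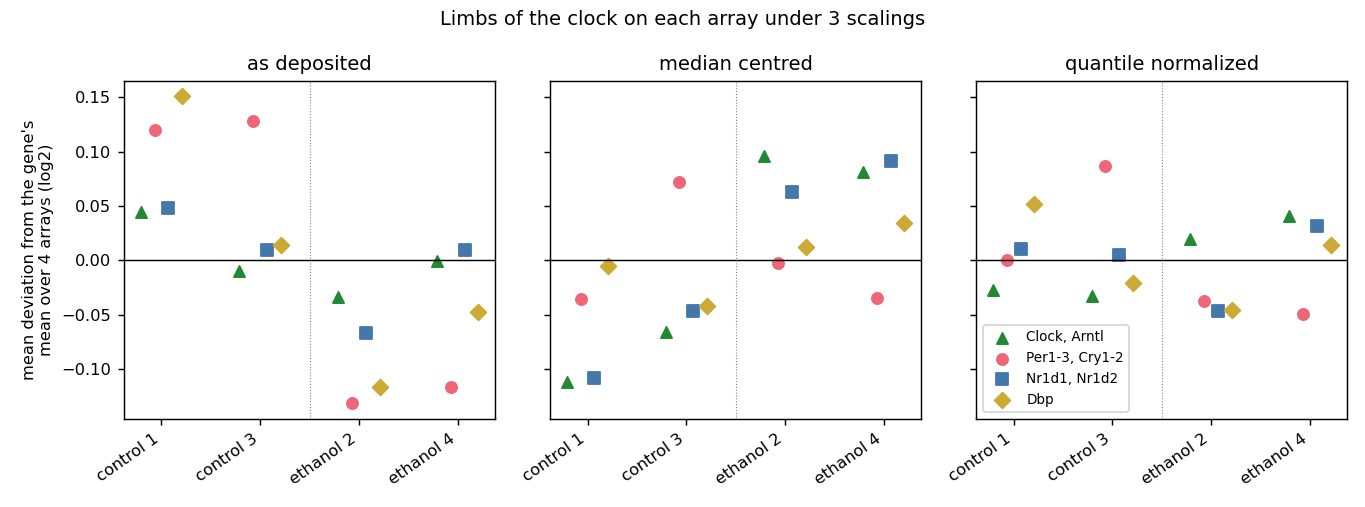
Mean deviation from the gene mean over the 4 arrays (log2, vertical axis) of the Clock and Arntl pair (green), the Per and Cry genes (red), the Nr1d pair (blue) and Dbp (yellow) on each array, under 3 scalings. The Per and Cry genes lie lower relative to Clock and Arntl on both ethanol arrays than on both control arrays in all 3 panels. Median centring cannot change this contrast within an array.

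The shift of the arrays depended on signal, which matters for genes that span levels of 6.85 (Per2) to 11.79 (Nr1d1) in mean log2 signal. Probe sets naming 1 gene with a mean log2 of 6 to 7 had a median difference of -0.17, those of 9 to 10 a median of -0.14 and those of 11 to 12 a median of -0.09. Set against the probe sets of their own signal, Dbp, Nr1d2, Per3 and Arntl were within 0.04 of the local median. Per1 was -0.17 and Cry2 -0.18 from it, Cry1 and Per2 were -0.06 and -0.05 from it, and Clock was 0.17 above it. In all, 5 clock genes lay below their local median and 5 above.

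**Figure D4:**
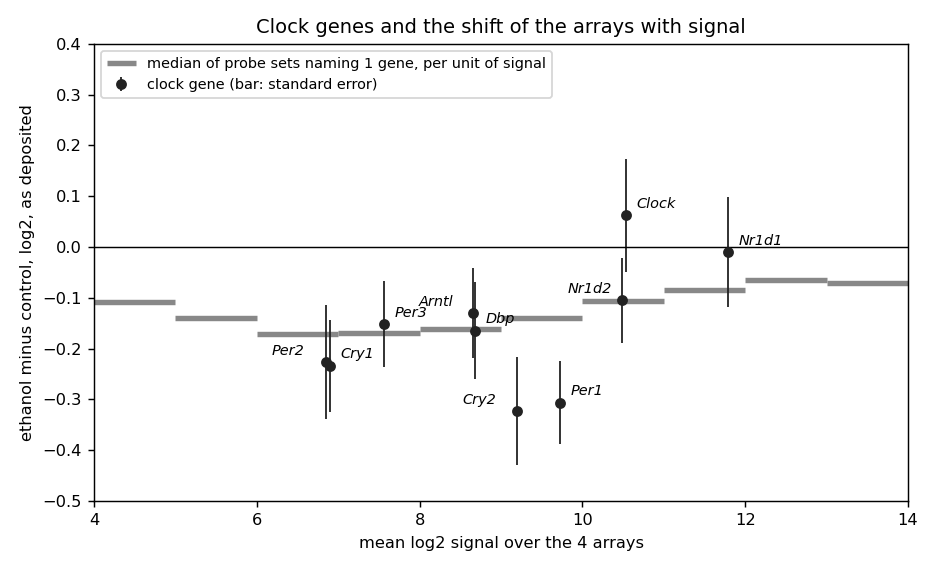
Difference between the groups (ethanol minus control, log2, as deposited) against mean log2 signal for the 10 clock genes (points, bars are standard errors) and the median of all probe sets naming 1 gene in each unit of signal (grey lines). Per1 and Cry2 lie below the grey line at their signal and Clock lies above it.

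Motifs of the loop were searched on both strands of the RefSeq start windows of all genes (32851 windows of 300 bases). Of the 10 clock genes 9 had windows, 13 in all, of which 5 are shown above. The E-box CACGTG was in 2 of the 13 windows (Per1 and Cry1) and in 7.15% of all windows. The variant CACGTT was in 3 (Cry1, Cry2 and Nr1d1) and in 4.68% of all. The D-box, as TTATGTAA or TTACGTAA, was in 1 (Per3) and in 1.06% of all. The ROR element core TAGGTNA was in 2, both of Arntl, and in 8.29% of all. These 2 windows overlap and share the same TAGGTTA match, so they are not separate cases. The cAMP response element TGACGTCA was in none and in 1.79% of all. No matches of different motifs overlapped in these windows. Of the genes past the limits, Per1 had a window with the E-box and Cry2 had the variant alone, and Cry1, with both, was short of the limits. A match is a stretch of letters and does not show binding.

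Beyond the 10 genes, 26 further listed genes of the clock pathway were measured by a probe set naming them alone. Of the 26, 2 passed the limits with lower signal on the ethanol arrays, none passed with higher signal, and 24 did not pass, where the shares over all probe sets were 17.9% and 2.23%. The share of lower calls was thus below that background. Their median difference was -0.14, and 0.01 after quantile normalization. Nfil3 encodes a protein that competes with DBP at D-boxes, and Cipc encodes an inhibitor that binds CLOCK. Nfil3 had signals of 6.44 and 6.72 in the control pools, against 6.02 and 6.10 in the ethanol pools, a difference of -0.52 (standard error 0.13, adjusted p = 0.173). Nfil3 was short of the limits after quantile normalization (-0.31), without ethanol 2 (-0.48, unadjusted p = 0.0606) and with the methods' ANOVA (unadjusted p = 0.0748). Cipc had signals of 9.31 and 9.25 in the control pools, against 8.94 and 8.79 in the ethanol pools, a difference of -0.41 (standard error 0.10, adjusted p = 0.172). Cipc remained past the limits after quantile normalization, at -0.29, where 5.87% of all probe sets passed in the lower direction. It was the only such gene of the 10 core and 26 pathway genes, a share below that background. With arrays centred on their medians Cipc was at -0.20 and not past the limits, and without ethanol 4 it was at -0.34.

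Among the other listed genes Rora, which encodes the activator that competes with the Nr1d receptors at ROR elements, had the highest difference, 0.16 (standard error 0.13, adjusted p = 0.492). Its controls were 9.76 and 9.49 and its ethanol pools 9.70 and 9.87, and after quantile normalization both ethanol pools were above both controls, at a difference of 0.26. Btrc, a subunit of the ligase that marks PER proteins for degradation, was next with 0.11 (adjusted p = 0.472). With arrays centred on their medians Rora and Btrc were past the limits and higher, at 0.37 and 0.33. Under that scaling 9.09% of all probe sets were so. The D-box activators related to Dbp were at -0.25 (Hlf) and -0.17 (Tef), and the casein kinases of PER at -0.25 (Csnk1e) and -0.16 (Csnk1d), all short of the limits. The suprachiasmatic peptide Vip and its receptor Vipr2 were at -0.18 and -0.10. Ciart, a repressor of CLOCK and ARNTL, had 2 probe sets that disagreed. The one of higher mean signal, used in the counts, was at -0.14, and the other was at -0.40 and past the limits (adjusted p = 0.177), and neither passed after quantile normalization.

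**Figure D5:**
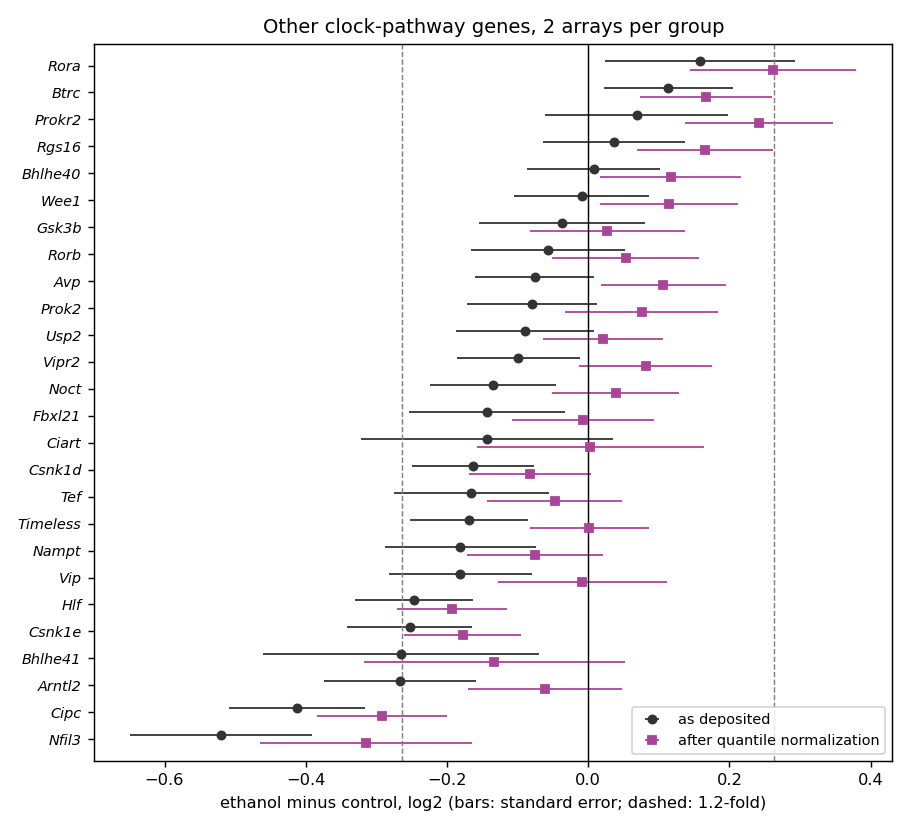
Difference between the groups (ethanol minus control, log2) for 26 other clock-pathway genes, sorted by the value as deposited (black circles), with the value after quantile normalization (purple squares), standard errors as bars and dashed lines at 1.2-fold. Nfil3 and Cipc lie lowest, beyond the 1.2-fold line as deposited, and Rora lies highest.

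Genes that report on the state of the animal at collection were read beside Per1, since Per1 responds to several such signals. Of 4 glucocorticoid-induced genes, 3 passed the limits as deposited with lower signal in the ethanol pools, and the fourth, Fkbp5, was at -0.31 and short of them. Over all probe sets 17.9% passed in that direction. Sgk1, a kinase gene of this response, had signals of 8.92 and 8.93 in the control pools, against 8.67 and 8.63 in the ethanol pools. As for Per1, the pools of a group were close to each other. Its difference was -0.28 (standard error 0.08, adjusted p = 0.187), and those of Tsc22d3 and Zbtb16 were -0.32 and -0.26. After quantile normalization none of the 4 passed, with differences of -0.19 to -0.10. Their part in the result for Per1 was not tested.

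Of 9 activity-dependent genes none passed the limits as deposited, and their differences had both signs (median 0.02). Npas4, an activity-dependent transcription factor gene, had signals of 6.88 and 7.31 in the control pools, against 7.65 and 7.41 in the ethanol pools. Its difference was 0.43 (adjusted p = 0.247). Npas4 passed the limits after quantile normalization at 0.61, where 5.71% of all probe sets passed in the higher direction. Of 6 temperature-responsive genes, Cirbp and Hsph1 passed the limits as deposited, each at -0.28, and none passed after normalization. As deposited, 17.9% of all probe sets passed in the lower direction and 2.23% in the higher one. Rbm3 of the same list was at -0.05, and its groups overlapped. Cirbp is induced by mild cold and Hsph1 by heat. Gabra6, a marker of cerebellar granule cells, was past the limits and higher in both forms of the data, at 0.51 and 0.58, whereas the other 2 cerebellar markers, Cbln1 and Pcp2, were at -0.11 and -0.01. The part of these differences in the values of the clock genes was not tested.

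The genes whose profiles over the 4 arrays came closest to those of Dbp and Arntl were not clock genes. After removal of array medians and gene means, Rabggtb, Trim3 and Polr3f were nearest to Dbp, with root mean square differences of 0.0031 to 0.0050 log2 units. Uqcrc2, Cngb1 and Phf21a were nearest to Arntl, at 0.0063 to 0.0084. Of 13283 candidate probe sets, 1525 lay within 0.05 of Dbp and 1046 within 0.05 of Arntl, so on 4 arrays such likeness is common.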

How the data were processed

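RNA of 4 pools, 2 per group and each from 3 males, was hybridized to Affymetrix Mouse Gene 1.0 ST arrays. The authors summarized probes to gene level by RMA with quantile normalization and GC adjustment in Partek Genomics Suite (version 6.6 in the submitters' notes, another in the methods), and deposited log2 values, whose array medians nevertheless differ. No genome build is given for them in the sources used here. Groups follow the array titles, and replicate numbers are the array numbers in the titles.

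All 35556 probe sets were fitted with limma 3.58.1 in R 4.3.3 (two-sided, 2 residual and 2.57 prior degrees of freedom), with Benjamini-Hochberg adjustment over all of them and no filter on dim probe sets. P-values of limma measure the spread between pools, with the variance of each probe set drawn toward that of all probe sets. The procedure was tested on simulated data. Symbols come from the platform annotation, and start windows from RefSeq (GRCm38.p6). For listed genes other than the 10, the probe set of highest mean signal was used. Named were the 10 genes, listed pathway genes past the limits or among the 2 highest and 2 lowest differences, state genes past the limits and the 3 nearest profiles to Dbp and Arntl with a mean log2 of 6 or more. Markers, related genes (Hlf, Tef, Csnk1d, Csnk1e, Vip, Vipr2, Ciart) and Fkbp5 were named after their values were seen. Members and lists were chosen with earlier results of these data known. Alternatives were the treatment entry as grouping, quantile normalization, median centring, an intensity trend, only probe sets with mean log2 of at least 5, the methods' ANOVA, each array left out, both possible pairings as a replicate block, ethanol 2 against control 3 alone, a 1.5-fold limit and an adjusted p of 0.05. The number of arrays limits the precision.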

Additional observations from a re-analysis of the deposited data

How the results depend on the processing

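Per1 and Cry2 kept a negative difference under all alternatives run, though with the treatment entry it was -0.0197 and -0.146 and with median centring -0.0950 and -0.112. The count of 2 core clock genes past the limits and lower fell to 0 with grouping by the treatment entry, quantile normalization, median centring, a 1.5-fold limit or an adjusted p of 0.05, and to 1 with the methods' ANOVA or the replicate block of control 1 with ethanol 4. The other replicate block kept 2. With 1 array left out, the difference of Per1 ran from -0.32 to -0.29 and that of Cry2 from -0.40 to -0.25. Such fits assume that the lone array of a group varies like the others. For the other pathway genes the count of 2 lower fell to 0 with the treatment entry, centring, 1.5-fold or the adjusted p. It fell to 1 with quantile normalization or the ANOVA. With 1 array left out, the difference of Nfil3 ran from -0.66 to -0.38 and that of Cipc from -0.48 to -0.34. With centring 1 core gene and 2 others were past the limits and higher, where 0 were as deposited. Of all probe sets, 9.09% were so with centring and 2.23% as deposited. A minimum mean log2 of 5 and an intensity trend changed no count. Over all probe sets the share past the limits and lower was 17.9% as deposited and 0.69% with the treatment entry. It was 5.87% with quantile normalization, 3.91% with centring, 8.11% with the ANOVA and 16.7% with the block of control 1 with ethanol 4.

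Grouped by the treatment entry, the signs turned for Per2 (0.16), Per3 (0.0248), Dbp (0.0339), Cipc (0.10), Btrc (-0.0865), Npas4 (-0.0922), Sgk1 (0.0180), Tsc22d3 (0.0128) and Hsph1 (0.0230). Quantile normalization turned Arntl (0.00299), Per3 (0.0201) and Nr1d1 (0.0111). Centring turned Arntl (0.0807), Per3 (0.0599), Nr1d1 (0.20), Nr1d2 (0.11) and Dbp (0.0471). With 1 array left out, Clock ran from -0.0432 to 0.168 and Nr1d1 from -0.0967 to 0.0774. The cause of these changes was not tested. Ethanol 2 minus control 3, the arrays on which all labels agree, gave -0.33 for Per1 and -0.47 for Cry2.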
